A study of Sus scrofa with 24 samples.

Results

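Genes of the extracellular matrix, the collagens, glycoproteins, proteoglycans, proteases and inhibitors that build and remodel connective tissue, were followed in the subcutaneous fat of 24 pigs. The list held 44 genes. A gene was read where a probe's name, or the symbol of the RefSeq identifier listed with it, was one of the 44, and the brightest of its probes stood for it. By this rule 29 of the 44 were on the array, out of 5247 gene symbols in all, and 27 of these 29 passed the filter on dim probes. Those 27 are called the measured genes below.

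All pigs were sampled at 115 kg body weight, 1 array per pig and 8 pigs per group. RFIneg pigs came from a low residual feed intake line and ate ad libitum. RFIplR pigs came from the high residual feed intake line and were held to the feeding level of the RFIneg pigs. RFIpl pigs came from the same high line and ate ad libitum. Residual feed intake is what an animal eats beyond the need predicted for its growth and upkeep. RFIneg against RFIpl contrasts the lines at free feeding, RFIneg against RFIplR contrasts the lines at 1 feeding level, and RFIplR against RFIpl contrasts 2 feeding levels within a line. The first and the last share the 8 RFIpl pigs as their reference, so their differences are not independent. Age and sex are not given in the labels.

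Fat cells sit in a mesh of fibrillar collagens, a basement membrane and a pericellular layer of collagen VI. Fibroblasts and adipocyte progenitors make most of the fibrillar collagen, and adipocytes add much of the basement membrane. Matrix metalloproteinases (MMPs) cut this mesh as cells enlarge, tissue inhibitors of metalloproteinases (TIMPs) restrain them, and transforming growth factor beta drives matrix gene transcription.

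The probes are 60-base oligonucleotides. The sequences below, read from the scanner files and written 5′ to 3′ in lower case, are shown because the calls described further down rest on the genes they read. The COL6A2 sequence sits on the array as 2 probes, so these are repeats of 1 measurement. The MGP oligo is the dimmest of 5 distinct MGP probes, and the COL1A2 oligo is a second COL1A2 probe, found through its description.
COL1A2: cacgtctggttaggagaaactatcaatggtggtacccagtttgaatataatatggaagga
COL6A2: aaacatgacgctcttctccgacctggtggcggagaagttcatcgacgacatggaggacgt
COL12A1: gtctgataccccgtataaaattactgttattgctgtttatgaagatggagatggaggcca
POSTN: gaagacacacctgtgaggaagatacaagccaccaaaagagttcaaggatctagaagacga
TIMP2: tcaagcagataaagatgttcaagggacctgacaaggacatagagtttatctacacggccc
MGP: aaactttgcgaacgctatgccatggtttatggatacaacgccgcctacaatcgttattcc

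The arrays came in 2 kinds. On 17 bright arrays the 75th percentile of the signal lay between 414 and 663, and on 7 dim arrays between 69.4 and 94.4. Bright arrays numbered 6, 5 and 6 and dim arrays 2, 3 and 2 in RFIneg, RFIplR and RFIpl. All 7 dim arrays were scanned on the second of 3 scan days, beside 3 bright ones. On that day 2 of 2 RFIneg, 3 of 4 RFIplR and 2 of 4 RFIpl arrays were dim, so differences within it also carry the shift between the 2 kinds of array. Values are log2 signals relative to each array's own 75th percentile, so a value of 0 is a probe at that percentile. Scaling did not align the matrix genes between the 2 kinds of array. The shift of bright over dim arrays ran between -3.35 for COL6A2 and 2.48 for MMP14, with 11 of 27 measured genes above 0 and a median of -0.70. It exceeded 1 in size for 17 of 27, against 54.2% of all kept probes. Each comparison is therefore given from the fit on the 3 groups and from the same fit with brightness as a block.

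**Figure D1:**
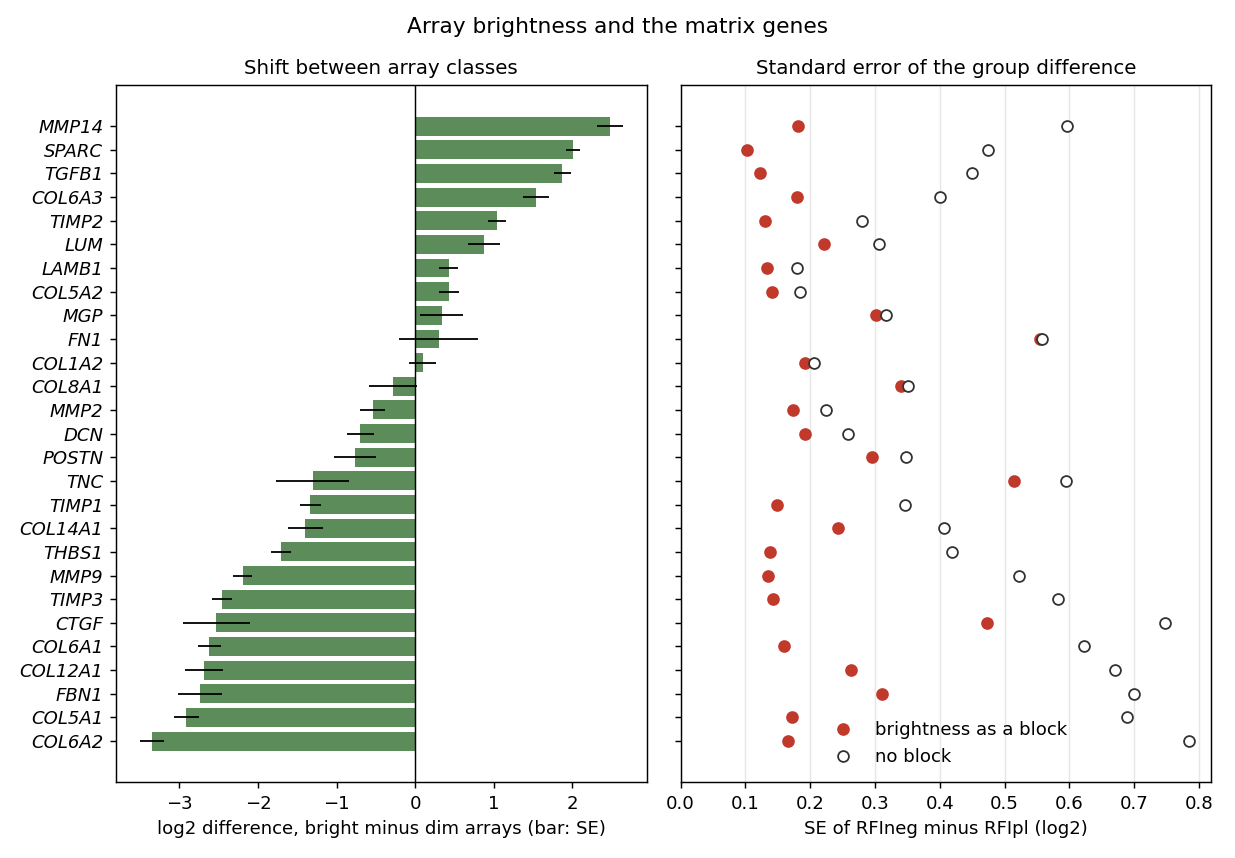
Left, the log2 shift of bright over dim arrays for each of the 27 measured genes, with its standard error, and right, the standard error of RFIneg minus RFIpl with brightness as a block (filled) and without it (open). COL6A2 has the lowest shift, -3.35, and MMP14 the highest, 2.48, and the block lowers the standard error of every gene shown.

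Without the block, none of the 27 measured genes passed the limma test at an adjusted p of 0.05 in any comparison. Over all kept probes 0.206% were called in RFIneg against RFIpl (0.147% higher, 0.0594% lower), 0% in RFIneg against RFIplR and 0.297% in RFIplR against RFIpl (0.182% higher, 0.115% lower). Unadjusted p-values under 0.05 were found for 4, 0 and 3 of the 27, or 14.8%, 0% and 11.1%, against 6.86%, 2.11% and 8.18% of all kept probes. With brightness as a block, 2 of 27 fell in RFIneg against RFIpl, namely COL1A2 and POSTN, where 6.62% of all probes were called, 2.3% lower and 4.32% higher. In RFIplR against RFIpl 5 of 27 changed: COL1A2, COL6A2, COL12A1 and MGP fell and TIMP2 rose, where 10.4% of all probes were called, 4.51% lower and 5.85% higher. None was called in RFIneg against RFIplR, where 0% of all probes were. No gene had groups that stayed apart on all 24 arrays in any comparison, against 0.0245%, 0% and 0.154% of all probes. On the bright arrays SPARC and TIMP2 had every RFIplR value above every RFIpl value, 2 of 27 genes against 3.07% of all probes, while the comparisons of RFIneg with RFIpl and with RFIplR had no such gene, against 0.912% and 0.542%.

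Across the list the differences leaned to lower values in both comparisons with RFIpl. In RFIneg against RFIpl 10 of 27 were above 0 and 17 below, with a median log2 difference of -0.24 with and without the block, against -0.01 over all kept probes in both fits. In RFIplR against RFIpl 9 were above 0 and 18 below in both fits, with a median of -0.26 with the block and -0.14 without it, against -0.02 and 0.01 over all probes. In RFIneg against RFIplR 13 were above 0 and 14 below with the block, with a median of -0.00093, and 9 above and 18 below without it, with a median of -0.15. These medians carry no test. The median for RFIneg against RFIpl was -0.21 on bright arrays alone, -0.21 on dim arrays alone and -0.23 with slide and brightness together. Where brightness was not in the fit, it was -0.0042 with slide as a block, 0.02 with scan day as a block, 0.01 within scan day 1, which held bright arrays only, and 0.24 within scan day 2, where the dim arrays were unevenly spread. RFIplR against RFIpl stayed below 0 in all of these, between -0.13 within scan day 2 and -0.32 with slide and brightness together.

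**Figure D2:**
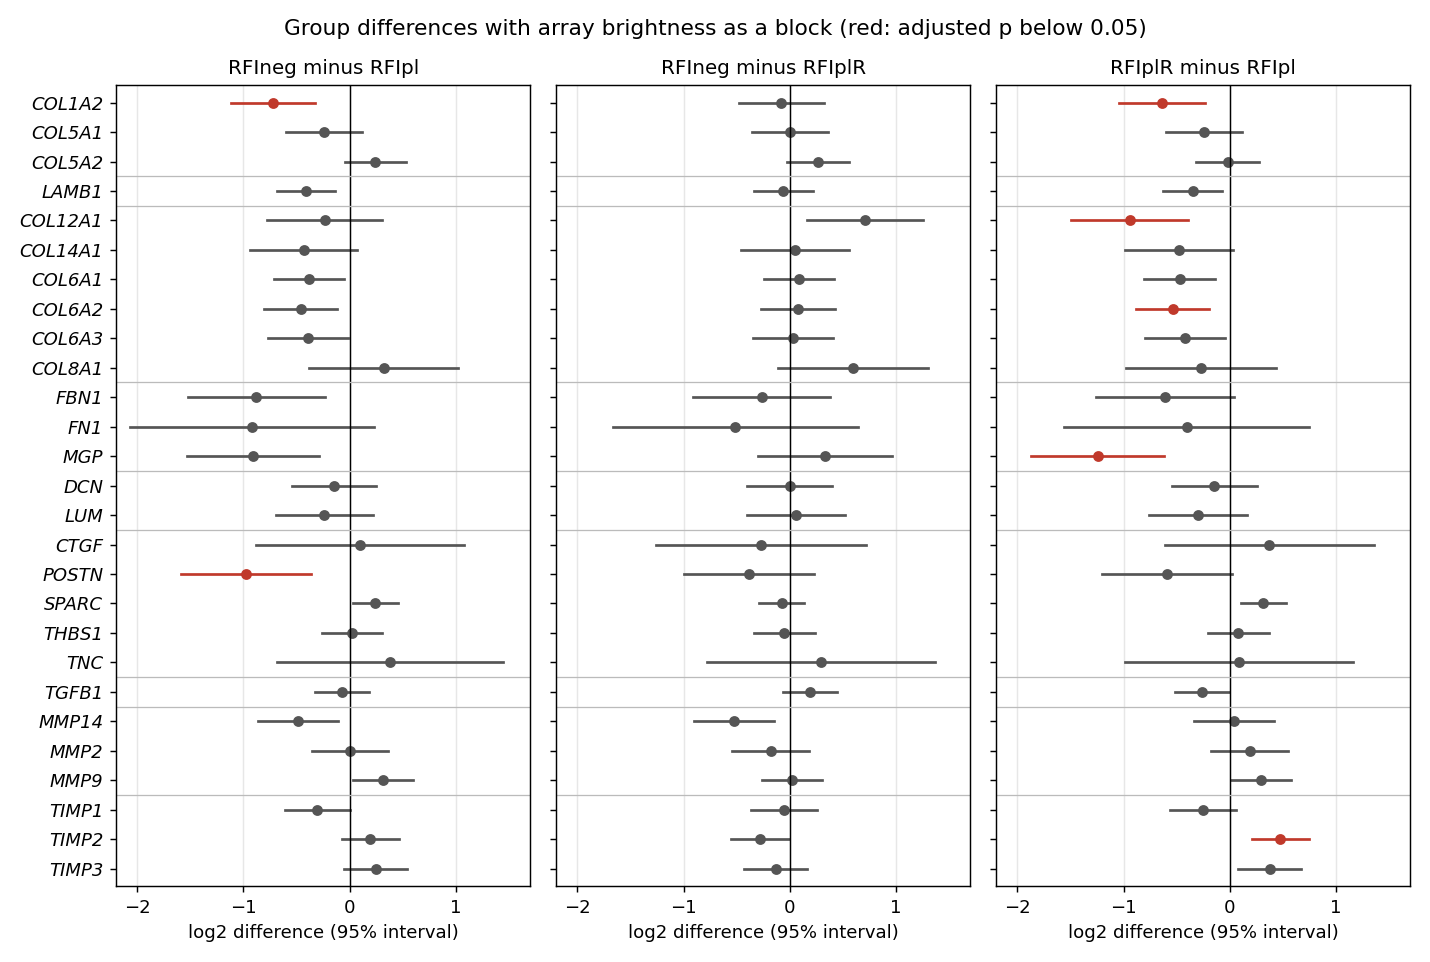
Log2 differences between groups, with 95% intervals, for the 27 measured genes in the fit with brightness as a block, ordered by role. Calls at an adjusted p under 0.05 are red: COL1A2 and POSTN lie below 0 in RFIneg minus RFIpl, none is called in RFIneg minus RFIplR, and in RFIplR minus RFIpl COL1A2, COL12A1, COL6A2 and MGP lie below 0 and TIMP2 above it.

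Fibrillar collagens form the tension-bearing fibres. Of 5 listed, COL1A2, COL5A1 and COL5A2 were measured. COL1A2, which encodes the alpha 2 chain of type I collagen, stood at 2.74 to 3.82 in RFIneg (median 3.48), at 2.42 to 4.23 in RFIplR (median 3.50) and at 3.82 to 4.51 in RFIpl (median 4.11). A single RFIneg array reached the lowest RFIpl value, while RFIplR spread over both ranges. The block fit put COL1A2 1.65-fold lower in RFIneg than in RFIpl (log2 -0.72 ± 0.193 SE, 95% interval -1.12 to -0.32, adjusted p 0.027) and 1.56-fold lower in RFIplR than in RFIpl (-0.64 ± 0.194, -1.04 to -0.24, adjusted p 0.038). Since fewer cells of a type and less RNA per cell give the same bulk signal, they cannot be told apart here or in the results that follow. Without the block the differences were -0.72 and -0.65, with adjusted p 0.186 and 0.216. RFIneg differed from RFIplR by -0.08 (-0.48 to 0.32). A second COL1A2 probe, found only through its description, was brighter, with a mean of 7.36 against 3.69. In the block fit that probe was called in RFIplR against RFIpl but not in RFIneg against RFIpl, with values given further down.

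COL5A1 and COL5A2, chains of the type V collagen that regulates fibril width, did not pass the test in any comparison. COL5A1 differed by -0.24 in RFIneg and by -0.25 in RFIplR against RFIpl. COL5A2 stood on the other side of 0 in RFIneg against RFIpl (0.24, -0.05 to 0.53) and near it in RFIplR against RFIpl (-0.02). Its 4 probes did not move as a unit, and 2 of 4 had the opposite sign in RFIneg against RFIpl. The lowest correlation between any pair of these probes on the bright arrays was 0.06.

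**Figure D3:**
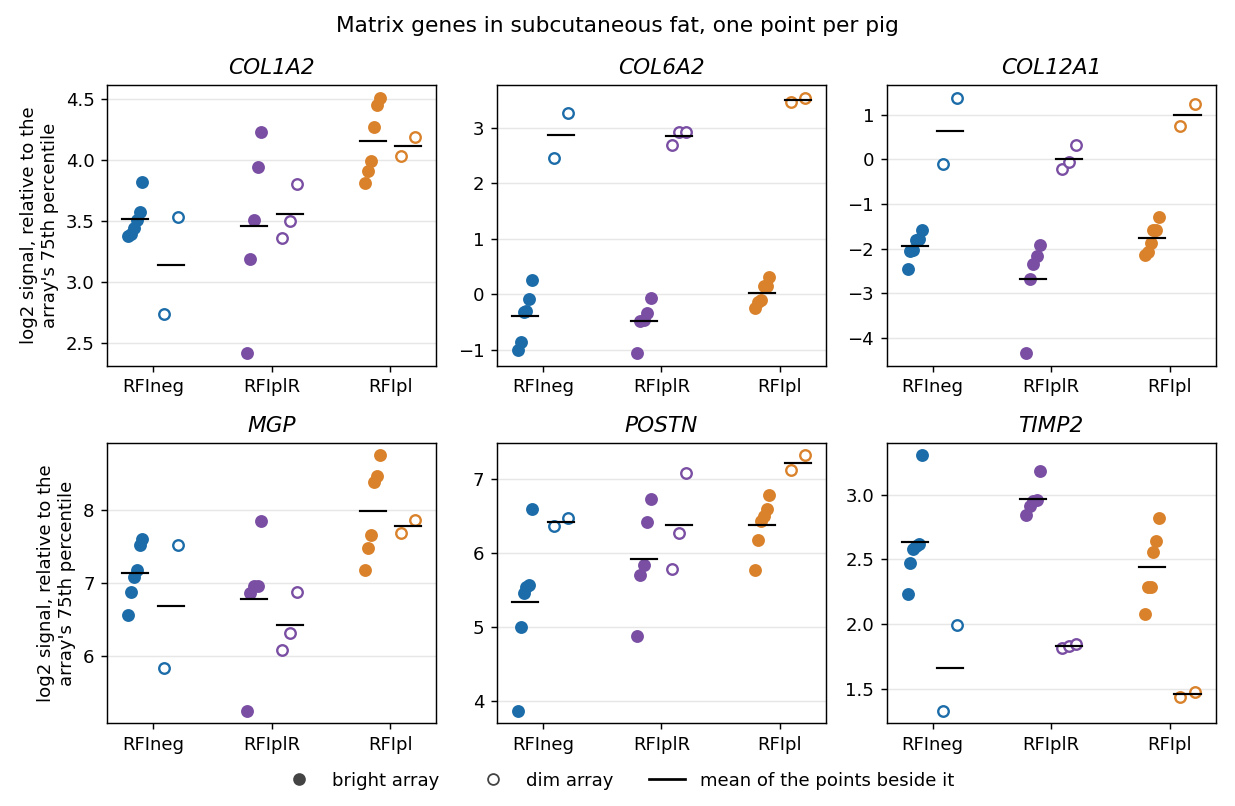
Level of 6 matrix genes in each pig, as log2 signal relative to the array's 75th percentile, with bright arrays filled, dim arrays open and a line at the mean of each set. COL6A2 and COL12A1 sit higher on dim arrays in every group and TIMP2 lower, while the RFIpl arrays of COL1A2 and MGP lie at the upper end of both sets.

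Collagen VI is a beaded network around adipocytes, assembled from the chains of COL6A1, COL6A2 and COL6A3. In RFIplR against RFIpl the block fit gave -0.47 for COL6A1, -0.54 for COL6A2 and -0.42 for COL6A3, and only COL6A2 passed the test (± 0.166 SE, 95% interval -0.88 to -0.20, adjusted p 0.041). COL6A1 had an adjusted p of 0.062 and COL6A3 of 0.144. On bright arrays COL6A2 stood at -1.06 to -0.06 in RFIplR and at -0.25 to 0.31 in RFIpl, and on dim arrays at 2.69 to 2.93 in RFIplR and at 3.46 to 3.54 in RFIpl. The groups overlapped on the bright arrays and stayed apart on the few dim ones. In RFIneg against RFIpl the chains differed by -0.39, -0.46 and -0.39, with adjusted p 0.148, 0.093 and 0.195. Between RFIneg and RFIplR they differed by 0.09, 0.08 and 0.03. The 3 chains of this heterotrimer shifted unequally between array kinds, with bright minus dim at -2.62 for COL6A1, -3.35 for COL6A2 and 1.54 for COL6A3. The COL6A2 call was lost without the block, where its RFIplR minus RFIpl difference was -0.12 and its adjusted p 0.999. Within scan day 2 the difference was 0.19 over all arrays, with more of the RFIplR arrays dim. There the bright RFIplR array stood at -0.34 and the bright RFIpl arrays at 0.14 and 0.31, and all dim arrays were scanned that day. Of the 6 COL6A3 probes, all below 0 in both comparisons with RFIpl, the dimmest was called in RFIplR against RFIpl (-0.69, adjusted p 0.022).

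COL12A1 and COL14A1 encode collagens that decorate the surface of type I fibrils. On bright arrays COL12A1 stood at -4.35 to -1.91 in RFIplR (median -2.35) and at -2.15 to -1.29 in RFIpl (median -1.73). On dim arrays it lay between -0.21 and 0.32 in RFIplR and between 0.76 and 1.26 in RFIpl. The lowest value belonged to RFIplR 7, and of the bright RFIplR arrays only RFIplR 1, at -1.91, lay within the RFIpl range. COL12A1 was 1.92-fold lower in RFIplR than in RFIpl (log2 -0.94 ± 0.265 SE, 95% interval -1.49 to -0.40, adjusted p 0.026), and fell by 0.68 with RFIplR 7 left out (adjusted p 0.040). Without the block its adjusted p was 0.999. It stood higher in RFIneg than in RFIplR by 0.71 (0.16 to 1.26), with an unadjusted p of 0.014 and an adjusted p of 0.440, or by 0.44 without RFIplR 7, and differed by -0.24 between RFIneg and RFIpl. COL14A1 differed by -0.43 in RFIneg and -0.48 in RFIplR against RFIpl (adjusted p 0.298 and 0.224), and its 11 probes, each of a sequence of its own, were all below 0 in both.

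COL8A1, a short-chain collagen of vessel walls, differed by 0.32 in RFIneg against RFIpl and by -0.27 in RFIplR against RFIpl, neither called. The second value was set by RFIplR 7, at 0.04 where the other RFIplR arrays stood between 1.91 and 3.1, and it was 0.02 with that array left out. In all, 6 of 6 collagens outside the fibrillar and basement membrane groups were below 0 in RFIplR against RFIpl and 5 of 6 in RFIneg against RFIpl. Of these 2 and 0 were called, where 4.51% and 2.3% of all probes were called lower with the block. RFIplR 7 was the lowest bright array for all 6, and without it COL8A1 was no longer below 0.

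The basement membrane was the thinnest group, with 1 of 8 listed genes measured. LAMB1, a laminin beta chain, stood at 2.12 to 3.14 in RFIneg (median 2.88), at 2.1 to 3.34 in RFIplR (median 2.82) and at 2.85 to 3.59 in RFIpl (median 3.25). Its differences of -0.41 in RFIneg against RFIpl and -0.35 in RFIplR against RFIpl did not pass (adjusted p 0.064 and 0.097), and RFIneg minus RFIplR was -0.06 (-0.34 to 0.22). A second, dimmer LAMB1 probe was called in both comparisons, at -0.55 (adjusted p 0.037) and -0.53 (adjusted p 0.034).

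Among glycoproteins and elastic fibre genes MGP, FBN1 and FN1 were measured of 6 listed, and all were below 0 in both comparisons with RFIpl. MGP encodes matrix Gla protein, an inhibitor of calcification in soft tissue. It stood at 5.83 to 7.59 in RFIneg (median 7.13), at 5.25 to 7.84 in RFIplR (median 6.87) and at 7.17 to 8.74 in RFIpl (median 7.77). A single RFIplR array, at 7.84, lay above the lowest RFIpl value, and the RFIneg arrays overlapped the lower RFIpl ones. MGP was 2.37-fold lower in RFIplR than in RFIpl (-1.24 ± 0.304 SE, 95% interval -1.87 to -0.62, adjusted p 0.013), the largest called change among the measured genes. All 5 MGP probes were called there, between -1.24 and -1.11, with adjusted p between 0.0096 and 0.015. The MGP call was kept with each array left out in turn (adjusted p 0.0053 to 0.029), with slide and brightness as blocks (0.015) and with scan day as a block (0.030), and lost with no block (0.077) and with slide alone (0.079). Within scan day 1 the difference was -1.08 and within scan day 2 -1.54. In RFIneg against RFIpl MGP differed by -0.91 (-1.54 to -0.29, adjusted p 0.071) and was not called.

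FBN1 encodes fibrillin 1, the scaffold of elastic microfibrils. On bright arrays it stood at -1.02 to 0.56 in RFIneg, at -1.03 to 1.40 in RFIplR and at -0.10 to 1.77 in RFIpl. Its difference of -0.88 in RFIneg against RFIpl did not pass (-1.52 to -0.24, adjusted p 0.089), nor did that of -0.61 in RFIplR against RFIpl (adjusted p 0.222). FN1, fibronectin, a ligand for integrins, differed by -0.92 in RFIneg against RFIpl (adjusted p 0.338). That value rested on RFIneg 3, at -0.56 where the other RFIneg arrays stood at 3.94 to 5.12, and it was -0.26 with that array left out.

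DCN and LUM, decorin and lumican, are small leucine-rich proteoglycans that bind collagen fibrils and were measured of 4 listed. DCN stood at 7.02 to 8.5 in RFIneg (median 7.70), at 6.26 to 8.57 in RFIplR (median 7.87) and at 7.49 to 8.17 in RFIpl (median 7.72), with the 3 groups overlapping. Its differences were -0.15 in RFIneg and -0.15 in RFIplR against RFIpl, with intervals of -0.54 to 0.25 for both. LUM differed by -0.24 (-0.70 to 0.22) and -0.30 (-0.76 to 0.16). With the block all 5 DCN and all 8 LUM probes were below 0 in both comparisons, and none was called. Without it, 4 of 5 DCN and 5 of 8 LUM probes were below 0 in RFIplR against RFIpl.

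Matricellular proteins signal to cells without bearing load, and 5 of 6 were measured. POSTN, periostin, which promotes collagen crosslinking, stood at 3.88 to 6.59 in RFIneg (median 5.55), at 4.89 to 7.07 in RFIplR (median 6.05) and at 5.77 to 7.31 in RFIpl (median 6.55). On bright arrays 5 of 6 RFIneg values were below all RFIpl values, and the remaining one lay within the RFIpl range. POSTN was 1.97-fold lower in RFIneg than in RFIpl (-0.98 ± 0.295 SE, 95% interval -1.59 to -0.37, adjusted p 0.048), and without the block its adjusted p was 0.410. Its 6 probes ran between -1.0 and -0.89, and 3 were called. In RFIplR against RFIpl it differed by -0.59 (adjusted p 0.212). The POSTN call was the least stable, kept in 7 of 24 fits with 1 array left out.

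None of the other matricellular genes passed the test. SPARC, a collagen chaperone and counter-adhesive protein, stood on bright arrays at 7.43 to 7.82 in RFIneg, at 7.57 to 7.82 in RFIplR and at 7.03 to 7.53 in RFIpl. Its differences were 0.24 in RFIneg against RFIpl (adjusted p 0.161) and 0.32 in RFIplR against RFIpl (0.10 to 0.53, adjusted p 0.052). Of 7 SPARC probes, all above 0 in both, 1 was called in RFIplR against RFIpl (0.38, adjusted p 0.033). On the dim arrays the SPARC differences were -0.10 and 0.03. THBS1, thrombospondin 1, CTGF, a mediator of fibrosis, and TNC, tenascin C, differed by 0.02, 0.10 and 0.38 in RFIneg against RFIpl and by 0.08, 0.37 and 0.08 in RFIplR against RFIpl, with adjusted p of at least 0.673. The spread of TNC and CTGF between pigs was wide, with standard errors of 0.515 and 0.473 for RFIneg minus RFIpl.

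TGFB1, the growth factor of the list, differed by -0.08 in RFIneg against RFIpl (adjusted p 0.766) and by -0.26 in RFIplR against RFIpl (adjusted p 0.179). On bright arrays it stood at 0.09 to 0.60 in RFIneg, at 0.20 to 0.45 in RFIplR and at 0.25 to 0.96 in RFIpl.

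Of 5 listed proteases, MMP1 was well above background on 0 arrays and MMP3 on 11 (4, 3 and 4 in RFIneg, RFIplR and RFIpl), so neither was tested. MMP2, a gelatinase, stood at 4.67 to 6.32 in RFIneg, at 5.08 to 6.46 in RFIplR and at 5.28 to 6.01 in RFIpl, and differed by 0.01 in RFIneg and 0.19 in RFIplR against RFIpl. MMP9, the other gelatinase, differed by 0.32 and 0.30 (adjusted p 0.163 and 0.173). MMP14, the membrane-bound activator of MMP2, stood on bright arrays at 3.82 to 5.16 in RFIneg, at 4.60 to 5.05 in RFIplR and at 4.27 to 5.34 in RFIpl. Its differences were -0.49 in RFIneg against RFIpl (adjusted p 0.105) and -0.52 in RFIneg against RFIplR, where its unadjusted p of 0.0085 was the smallest of the list and its adjusted p 0.406. No protease passed the test.

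Of the 3 TIMPs only TIMP2 passed the test, in RFIplR against RFIpl. TIMP2, which also takes part in the activation of MMP2, stood on bright arrays at 2.23 to 3.30 in RFIneg (median 2.59), at 2.84 to 3.18 in RFIplR (median 2.95) and at 2.07 to 2.82 in RFIpl (median 2.42). On dim arrays the 3 RFIplR values of 1.81 to 1.85 lay above both RFIpl values of 1.44 and 1.48. RFIplR was above RFIpl on every array of each kind, and RFIneg overlapped both. TIMP2 was 1.39-fold higher in RFIplR than in RFIpl (0.48 ± 0.131 SE, 95% interval 0.20 to 0.75, adjusted p 0.024), with an adjusted p of 0.992 without the block. The difference was 0.66 within scan day 1 and 0.04 within scan day 2, where more of the RFIplR arrays were dim and TIMP2 was 1.04 higher on bright than on dim arrays. On dim arrays alone it was 0.37, and the bright RFIplR array of that day stood at 2.95 against 2.82 and 2.55 for the bright RFIpl arrays. TIMP3, the inhibitor that stays bound to matrix, differed by 0.24 in RFIneg and 0.37 in RFIplR against RFIpl (adjusted p 0.318 and 0.096), and TIMP1, the soluble inhibitor, by -0.30 and -0.25 (adjusted p 0.224 and 0.301).

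How far each call depended on single pigs differed between genes. With brightness as a block and each of 24 arrays left out in turn, MGP was called in 24 fits, COL12A1 in 23, TIMP2 in 22, and COL1A2 in 21 for RFIneg against RFIpl and in 15 for RFIplR against RFIpl. COL6A2 was called in 11 and POSTN in 7. COL12A1 was lost without RFIpl 5, TIMP2 without RFIpl 1 or RFIplR 5, and COL1A2 in RFIneg against RFIpl without RFIneg 3, RFIneg 7 or RFIpl 4. Without RFIpl 3 the calls numbered 8 in RFIneg against RFIpl and 9 in RFIplR against RFIpl, adding among others COL6A1 and LAMB1. The share of all probes called in that fit is not given, so the rise cannot be read as particular to the matrix genes. RFIplR 7 was the lowest of the 17 bright arrays for 14 of 27 genes, among them COL12A1, COL14A1, COL8A1 and the 3 collagen VI chains, and RFIneg 7 the lowest of the 7 dim arrays for 12. Without RFIplR 7 the calls in RFIplR against RFIpl were COL12A1, MGP and TIMP2. With slide added to brightness as a block, COL12A1 (adjusted p 0.048) and MGP were the calls that remained of the 7. Within scan days 1 and 2, where no gene was called, COL1A2 differed by -0.36 and -1.16 in RFIneg minus RFIpl and by -0.61 and -0.83 in RFIplR minus RFIpl, COL12A1 by -0.91 and -0.37, and POSTN in RFIneg minus RFIpl by -0.64 and -0.52. Scan day 3 held 1 array of each group and gave no test.

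**Figure D4:**
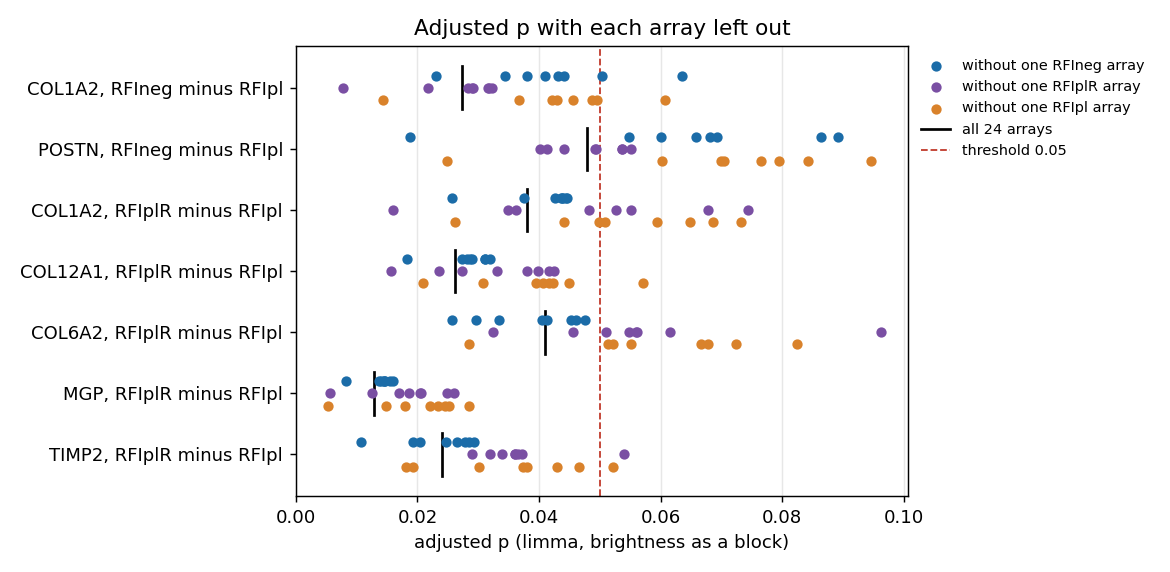
Adjusted p of the 7 calls in the fit with brightness as a block when each array is left out in turn, coloured by the group that lost an array, with a black line at the value from all 24 arrays and a dashed line at the threshold of 0.05. All MGP points lie under the threshold, between 0.0053 and 0.029, while 7 of 24 POSTN points do.

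Pairs of genes whose products work together were followed across pigs, in 6 relations adjusted together, within each kind of array. COL6A1 and COL6A3 varied together on the 17 bright arrays (Pearson r 0.87, Spearman rho 0.79, permutation adjusted p 0.00012 and 0.0023), with r 0.77 without RFIplR 7 and RFIpl 4. On the 7 dim arrays r was 0.87 and rho 0.86 (exact permutation p 0.026 and 0.024, adjusted 0.052 and 0.071), with r 0.68 on 5 arrays. DCN and LUM had r 0.57 and rho 0.50 on bright arrays (permutation p 0.011 and 0.040, adjusted 0.033 and 0.080). Their r was 0.32 without RFIneg 3 and RFIplR 7, the arrays farthest from the DCN median. Leaving out extreme arrays narrows the range and can lower r in itself, so how far the relation depended on them was not settled. Under quantile scaling the bright-array r was 0.63 and rho 0.70 (adjusted permutation p 0.014 and 0.0074), with r 0.40 without the same arrays. On the 7 dim arrays r was 0.03, and 0.93 on the 5 left without RFIneg 1 and RFIplR 6. MMP2 and TIMP2 had r 0.42 and rho 0.38 on bright arrays (adjusted permutation p 0.106 and 0.167) and r 0.89 and rho 0.64 on dim arrays (exact permutation p 0.037 and 0.139, adjusted 0.055 and 0.167). Pigs of all 3 groups enter each relation.

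Of the 15 listed genes that the rule did not find, 11 had a kept probe that the files describe by name or by likeness without a matching symbol. These probes were chosen after the files had been seen, together with a second COL1A2 probe, 12 in all. Without the block 0 of 12 were called in any comparison, with 1, 0 and 1 at an unadjusted p under 0.05. With the block COL1A1, the alpha 1 chain of type I collagen, COL1A2 and LAMC1, a laminin gamma chain, fell in RFIplR against RFIpl, by 0.92 (adjusted p 0.030), 0.77 (0.034) and 0.40 (0.041) on the log2 scale. These are 3 of 12, where 4.51% of all probes were called lower. COL1A1 stood on bright arrays at 4.94 to 5.63 in RFIneg, at 3.52 to 5.96 in RFIplR and at 5.55 to 6.31 in RFIpl. In RFIneg against RFIpl COL1A1 differed by -0.85 (adjusted p 0.055) and the second COL1A2 probe by -0.62 (0.102), and none was called. With slide and brightness as blocks 0 of 12 were called. BGN, biglycan, a proteoglycan like decorin, differed by -0.53 in RFIplR against RFIpl (adjusted p 0.069), and LOX, the enzyme that crosslinks collagen, by -0.51 in both comparisons with RFIpl (adjusted p 0.283 for RFIneg and 0.262 for RFIplR). COL4A1 and COL4A2, the main collagen IV chains, differed by -0.20 and -0.16 in RFIneg against RFIpl and by -0.23 and -0.05 in RFIplR against RFIpl, not called. COL3A1, ELN, FBLN1 and THBS2 had no probe that could be used.

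Neighbouring pathways were read with the same fits, in which the block called 2.3% of all probes lower in RFIneg against RFIpl and 4.51% in RFIplR against RFIpl. Without the block none of their genes was called. With it, 1 of 9 measured transforming growth factor beta pathway genes fell in RFIneg against RFIpl: SMAD7, the inhibitory SMAD (log2 -0.97 ± 0.171, adjusted p 0.0036), with bright arrays at -4.91 to -4.37 in RFIneg and at -3.94 to -3.28 in RFIpl. These values are low: a COL4A2 probe with a mean of -3.80 was well above background on only 16 arrays. The filter keeps a probe that passes in any 1 group, so the lower SMAD7 values may lie near background. In RFIplR against RFIpl 2 of 9 fell: TGFBR1, a receptor, by 0.43 (adjusted p 0.033) and SMAD4, the common SMAD, by 0.31 (adjusted p 0.019). The median of these 9 was -0.14 in RFIneg and -0.20 in RFIplR against RFIpl. Collagen processing had 5 of 18 genes measured and 0 called. Its smallest p-values belonged to PLOD2, a collagen lysyl hydroxylase, at 0.31 in RFIneg against RFIpl (adjusted p 0.128) and 0.31 in RFIneg against RFIplR, and to BMP1, the procollagen C-proteinase, at 0.21 in RFIneg against RFIplR (adjusted p 0.529). Matrix receptors had 8 of 16 measured and 0 called. DDR1, a collagen receptor kinase, was at -0.65 and -0.58 in RFIneg and RFIplR against RFIpl (adjusted p 0.063 and 0.081), and ITGA5, the fibronectin receptor subunit, at 0.34 and 0.26 (adjusted p 0.160 and 0.279).

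Marker genes of cell types were read beside the matrix genes, against 6.62% of all probes called in RFIneg against RFIpl and 10.4% in RFIplR against RFIpl. The signals of 8 adipocyte markers, summed in units of the 75th percentile, ran between 979.6 and 1413 in RFIneg (median 1275), between 852 and 1293 in RFIplR (median 1104) and between 758 and 1345 in RFIpl (median 968). These ranges pool bright and dim arrays. In the same order of groups, the medians were 1282, 1208 and 999.6 on bright arrays and 1009, 909 and 772 on dim arrays. With the block ADIPOQ and PLIN1 rose in both comparisons with RFIpl (0.27 and 0.48 in RFIneg, 0.29 and 0.39 in RFIplR) and LIPE and CIDEC rose in RFIneg against RFIpl (0.55 and 0.76). Of 5 measured fibroblast and progenitor markers only DPP4 was called in RFIneg against RFIpl (-1.19), while 3 were above 0 and the median was 0.05. In RFIplR against RFIpl none was called and 4 were above 0. On bright arrays their sum ran between 7.58 and 20.8 in RFIplR and between 10.5 and 20.2 in RFIpl. On dim arrays it ran between 25.2 and 34.7 in RFIplR and between 16.3 and 18.7 in RFIpl. Of 7 endothelial markers VWF rose in RFIneg against RFIpl, and PECAM1 and CDH5 rose and KDR fell in RFIplR against RFIpl. None of 5 smooth muscle and 5 macrophage markers was called. Single RFIpl arrays stood apart: the sum of 8 skeletal muscle markers was 1249.9 on RFIpl 2 and at most 33.8 on any RFIneg or RFIplR array, and the sum of 2 keratinocyte markers was 58.2 on RFIpl 7 and 21.0 on RFIpl 8, against at most 1.13 on any RFIneg or RFIplR array. With RFIpl 7 and 8 left out, COL12A1 and MGP were called in RFIplR against RFIpl and none in RFIneg against RFIpl. With RFIpl 1 and 2 left out, MGP was called in RFIplR against RFIpl and none in RFIneg against RFIpl. The part of these cell types in the matrix differences was not tested.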

How the data were processed

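Subcutaneous fat RNA of 24 pigs was hybridised to 1-colour Agilent arrays after Cy3 labelling by linear amplification, per the labels' protocols. The deposited scanner files hold each spot's processed intensity as Agilent's Feature Extraction software (version 10.7.3.1) wrote it, per the file headers. The submitters' processing notes name R 2.10.0. A deposited table of 24675 log2 values equals log2 of that intensity less the array median and served as an alternative.

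From the scanner files, log2 intensity minus each array's 75th percentile was computed, without control spots or those flagged as non-uniform, and repeat spots were averaged. Probes well above background on at least 6 of 8 arrays of a group were kept (28606 of 43603). A group model was fitted with limma 3.58.1 in R 4.3.3 over 24 arrays, with two-sided p-values adjusted over all kept probes by Benjamini-Hochberg at 0.05, and again with brightness as a block. Correlations used permutation tests in scipy 1.17.1. Levels of different probes are not comparable. The replicates are separate pigs, and their number limits the precision.

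Of the probes, 11943 had 1 gene symbol, 220 several and 31440 none, and probes with several were not used for a name. The only probe matched to COL3A1 is described as another gene and was dropped. The genes, roles, pathway lists and markers were chosen with earlier results of these data known. Genes were named where they passed the threshold in either fit, had 1 of the 4 smallest p-values in a direction, or had the highest level or smallest p of their role. Other genes are described as members of a role. Alternatives were normexp background correction (offset 50), quantile scaling, no filter, slide, scan day or replicate number as a block, array weights, and each array left out.

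On simulated data for RFIneg against RFIpl over 28462 probes, of 50 probes changed by 1 on the log2 scale 13 were recovered without the block and 46 with it. For changes of 0.5, 0 and 11 of 50 were recovered. Unchanged probes called numbered 0 without the block and 8 with it. The simulated shift between bright and dim arrays was the same in every group, with independent noise and no slide or scan day effect. The noise was also set somewhat below the real spread within groups and kinds of array. The block thus matched the simulated data by construction, so these counts do not test the calls in the real data.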

Additional observations from a re-analysis of the deposited data

Results flagged for a closer look

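Of 81 sets of values, 1 per measured gene and group, 3 held an array farther from the rest than Dixon's critical value for 8 samples. For values from a single normal population chance alone passes about 1 in 20. These sets mix bright and dim arrays, so that rate need not apply, and outlying arrays of genes that shift with brightness can be missed. COL1A2 stood at 2.74 on RFIneg 7, with the nearest RFIneg array at 3.38. FN1 stood at -0.56 on RFIneg 3, with the nearest at 3.94. COL8A1 stood at 0.0405 on RFIplR 7, with the nearest at 1.91.

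FN1 in RFIneg minus RFIplR was -0.51 with brightness as a block and 0.11 without RFIneg 3. COL8A1 in RFIplR minus RFIpl was -0.27 and 0.02 without RFIplR 7. Neither gene was called with or without these arrays. The COL1A2 call in RFIneg against RFIpl was lost without RFIneg 7, where the difference was -0.62 (adjusted p 0.064) against -0.72 with all arrays.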

How the results depend on the processing

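The calls made with brightness as a block were absent from the fit of all arrays without a block. Scan day as a block and array weights, without brightness in the fit, also gave calls. In RFIneg against RFIpl 0 genes were called without a block, 2 with brightness and 5 with array weights. With brightness as a block, 0 were called without RFIpl 1 and 2, 0 without RFIpl 7 and 8, 0 with slide added and 1 with the replicate block added. In RFIplR against RFIpl 5 were called with brightness, 1 with scan day as a block and 3 with array weights, and, with brightness, 1 without RFIpl 1 and 2, 2 without RFIpl 7 and 8, 2 with slide and 2 with the replicate block. Leaving out 1 array gave 0 to 8 calls in RFIneg against RFIpl and 2 to 9 in RFIplR against RFIpl with the block (4 without RFIneg 8 and 8 without RFIpl 3 in the first), and 0 to 0 and 0 to 1 without it. The 1 call without the block came without RFIpl 3 or without RFIplR 1. The share of all probes called also moved between settings. In RFIneg against RFIpl it was 0.206% without a block and 6.62% with brightness. It is not given for the other settings, so these counts cannot be read as particular to the matrix genes. The labels do not say whether the replicate numbers pair pigs between groups. With the replicate block alone 0 genes were called in each comparison and the RFIneg minus RFIpl median stayed at -0.24. The RFIneg minus RFIpl median was 0.24 within scan day 2, where both RFIneg arrays and 2 of 4 RFIpl arrays were dim, and -0.21 within each kind of array. The list's median varied between arrays of a group with an SD of 0.47. Bright and dim arrays enter this SD together, so it holds the shift between the 2 kinds as well as the spread between pigs. In the transforming growth factor beta list the block gave 1 call in RFIneg against RFIpl and 2 in RFIplR against RFIpl, against 0 without it. The dim-array correlation of COL6A1 with COL6A3 was 0.897 under quantile scaling and 0.905 under normexp (adjusted exact permutation p 0.025 in both, against 0.052). That of MMP2 with TIMP2 was 0.53 on bright arrays under quantile scaling (adjusted permutation p 0.032, rho 0.57 with 0.039, against 0.106 and 0.167), and 0.879 and 0.908 on dim arrays under quantile scaling and normexp (0.025 in both for r, against 0.055), where rho did not pass (adjusted p 0.131 and 0.051). Under normexp the median of all probes moved to 0.20 in RFIplR minus RFIpl and the COL12A1 difference to -0.09. Alternative values of 22 named genes, 4554 in all, were set against the fit without a block. Of these, 4041 kept their direction and side of the threshold, 163 passed it newly, and 350 uncalled values changed sign or moved. Since the fit without a block called 0 measured genes, no call could be lost in this count. The calls with brightness as a block are among the 163, so the count does not measure how stable they are. The cause of these changes between settings was not tested.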
